A study of Mus musculus with 4 samples.

Results

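Collagens, laminins and nidogens are the structural proteins of basement membranes and of the fibrillar matrix of the eye. The mouse table held 57 protein-coding genes with names of these families among 56493 genes, 44 collagen chains, 11 laminin chains and 2 nidogens, taken by name alone. Of these, 45 had at least 10 counts in at least 2 of 4 libraries and were compared between groups. RNA was sequenced from retinal cells that the labels call ganglion cells (RGC) and the design text describes as sorted. All mice were wild type, and in all of them an optic nerve crush followed an intravitreal AAV2 injection by a month. For 2 libraries the vector was AAV2-CrAT, made to overexpress the enzyme carnitine acetyltransferase. For the other 2 it was AAV2-MCS, an abbreviation that the labels leave unexplained. All 4 titles also carry the tag NCd8, which is not spelled out either. The comparison asks how these cells differ after the crush when the vector carries CrAT. The sources used here do not give the promoter of the vector, the strain, age or sex of the animals, or whether retinas were pooled. The labels do not tie replicates to separate animals, and the p-values then reflect only the spread between these libraries, which may be technical.

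A collagen chain is built from Gly-X-Y triplets, in which every triplet opens with glycine, so that a trio of chains can wind into a rope-like helix. Fibrillar collagens form fibrils, FACIT collagens sit on the surface of fibrils, and collagen IV forms the network of basement membranes. Laminins are cross-shaped trimers of an alpha, a beta and a gamma chain, and nidogens bridge the laminin and collagen IV networks. In the retina such matrix makes up the inner limiting membrane, which the endfeet of Mueller glia line, the sheath of blood vessels and Bruch's membrane. Collagens II and IX are known from the vitreous.

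The repeat can be read in the coding sequences, shown here for the collagen IX chains, for Col2a1 and Col18a1, on which the results turn, and for a laminin chain that lacks it. Each line gives 90 bases, 5′ to 3′, from the start of the longest run of triplets in the longest coding sequence of the gene (GENCODE M21, build GRCm38). Capitals mark glycine codons (GGN) that open a triplet in the collagens, and every GGN codon in Lama5.
Col9a1: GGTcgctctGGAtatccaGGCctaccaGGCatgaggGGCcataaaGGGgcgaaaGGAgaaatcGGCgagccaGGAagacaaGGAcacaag
Col9a2: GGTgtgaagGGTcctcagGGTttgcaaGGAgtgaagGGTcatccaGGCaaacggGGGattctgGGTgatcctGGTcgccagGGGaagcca
Col9a3: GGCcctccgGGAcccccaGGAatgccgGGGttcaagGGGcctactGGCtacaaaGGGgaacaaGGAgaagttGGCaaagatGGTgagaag
Col2a1: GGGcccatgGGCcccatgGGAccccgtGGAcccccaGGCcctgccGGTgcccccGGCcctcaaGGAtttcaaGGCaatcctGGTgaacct
Col18a1: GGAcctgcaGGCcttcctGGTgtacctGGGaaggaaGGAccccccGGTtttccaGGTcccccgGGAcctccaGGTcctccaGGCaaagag
Lama5: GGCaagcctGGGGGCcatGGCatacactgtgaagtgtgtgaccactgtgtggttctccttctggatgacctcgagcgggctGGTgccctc
In GRCm38 the Col9a2 stretch spans chr4:121045020-121045194 on the plus strand, in exons 11 and 12 of 32. The Col2a1 stretch spans chr15:97996507-97997320 on the minus strand, in exons 8 to 10 of 54. The Col9a1 stretch lies at chr1:24209080-24210426 (plus, exons 17 and 18), that of Col9a3 at chr2:180605239-180605780 (plus, exons 12 and 13), that of Col18a1 at chr10:77077195-77077746 (minus, exons 12 and 13) and that of Lama5 at chr2:180185910-180186595 (minus, exons 48 and 49).

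All 44 collagen genes had an unbroken run of at least 10 such triplets, with longest runs of 23 to 344 triplets. None of the 13 laminin and nidogen genes did, with longest runs of 2 or 3. Of 21584 genes with a coding sequence, 98 (0.454%) had a run of at least 10. Col9a1, Col9a2, Col9a3 and Col22a1 shared a longest run of 113 triplets, and Col2a1 had 339. The upstream 250 bases of the start were looked up in RefSeq (GRCm38.p6) for the 45 genes compared, of which 31 matched, with 35 start sites. The GC box (GGGCGG, either strand) was present in 20 of these windows (57.1%) and in 32.7% of all windows of this length. For the CCAAT box (CCAAT, either strand) the shares were 40% and 33.8%, for the TATA box (TATAAA, either strand) 11.4% and 12.4%, and for a SOX core (ACAAAG, either strand) 5.71% and 16.5%. A match is a description of the letters only.

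The libraries held 24494253 to 27097438 counts, and in each of them the 57 genes together took 0.0298% to 0.0765% of the counts. Intervals and floors from counts hold for counting error alone, because reads amplified without molecular tags do not stand for separate molecules. The ganglion cell label was checked against 13 markers, which summed to 67.4 to 203.4 CPM (counts scaled to library size and TMM), against 24770 to 46270 CPM for 10 rod markers. Pou4f1, a transcription factor of ganglion cells, had 0 counts in CrAT replicate 1 and 20 in CrAT replicate 2, against 1 and 15 in MCS. Rod transcripts thus exceeded those of the labelled cell type in every library. In bulk RNA fewer cells of a type and less RNA per cell cannot be told apart.

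Many matrix genes had lower values in the CrAT libraries, and none had both CrAT values above both MCS values. The 57 genes summed to 337.4 and 300.2 CPM in CrAT replicates 1 and 2, and to 753.4 and 553.5 CPM in MCS replicates 1 and 2. Of the 45 genes compared, 33 (73.3%) had a negative log2 fold change, CrAT over MCS, against 49.4% of the 19638 genes tested. Their median was -0.53, against 0.0075 for all genes tested. In 21 of 45 (46.7%) both CrAT values were under both MCS values, against 16.6% of all genes tested. In 0 of 45 both CrAT values were over both MCS values, against 15% of all genes tested. With 1 library left out, non-overlap was more frequent in both directions: 25 to 28 of the 45 lay under MCS, against 29.4% to 36.7% of all genes, and 4 to 8 lay over it, against 29.4% to 36.3% of all genes.

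No gene of the set, and no gene in the table, passed an adjusted p of 0.05 in edgeR's quasi-likelihood test, so that the share called over all genes was 0%. At an unadjusted p under 0.05, 14 of the 45 were lower (31.1%, against 2.87% of all genes tested) and 0 were higher (1.28% of all genes tested, and 4.15% in either direction). DESeq2 gave 14 of them an unadjusted p under 0.05 as well, against 4.57% of all genes. DESeq2 called 3 of them lower, Col9a2, Lama5 and Col2a1, against 0.117% of genes called lower in the table. The count rule lets a gene in through 1 group alone, as it did for Nid1, Col1a1 and Lama2, so these counts were not read as support for a difference. The same 45 genes had a mean of at least 10 counts over the 4 libraries, but MCS alone can also meet that rule, as for Nid1, Col1a1 and Lama2. With 10 counts required in all 4 libraries, 32 of the genes were tested. Of these, 24 had a negative log2 fold change, against 49.3% of all genes in that fit. At an unadjusted edgeR p under 0.05, 11 of the 32 were lower, against 3.18% of all genes. Without MCS replicate 1, 29 of the 45 had a negative log2 fold change, against 48.9% of all genes in that fit. The median moved further from 0 when a library was left out, to -0.89 without CrAT replicate 1, -0.97 without CrAT replicate 2 and -0.84 without MCS replicate 2.

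**Figure D1:**
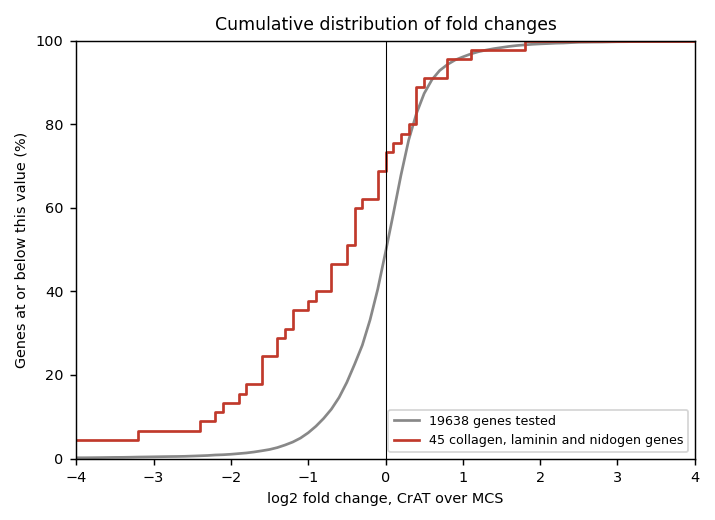
Cumulative share of genes (vertical axis, percent) at or below each log2 fold change, CrAT over MCS (horizontal axis), for the 45 matrix genes and the 19638 genes tested. The curve of the matrix genes lies to the left of the other at 0, with 73.3% against 49.4% of genes under 0, and values beyond the range drawn are left out.

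All chains of the fibril-associated collagen IX had lower values in both CrAT libraries. The molecule is a trimer of the products of Col9a1, Col9a2 and Col9a3. Col9a2 (ENSMUSG00000028626) had 157 and 157 counts in CrAT and 635 and 831 counts in MCS. As FPKM, which scales counts to exon length and library size, it was 1.98 ± 0.113 in CrAT and 9.14 ± 1.08 in MCS (SD, n = 2 each). The groups did not overlap, and the MCS mean was 4.45-fold the CrAT mean in CPM. The log2 fold change was -2.15 (SE 0.36), with an adjusted p of 1 in edgeR and 0.000442 in DESeq2. Leaving out each library in turn kept it between -2.03 and -2.27. Its position in the table, which names no build, is chromosome 4, plus strand, start 120896582 and end 120912519.

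Col9a3 was 2.75 and 1.90 FPKM in CrAT and 6.41 and 6.72 FPKM in MCS, also without overlap. Its log2 fold change was -1.44 (SE 0.38), with an adjusted p of 0.163 in DESeq2. Its exons share 464 bases with those of Tcfl5 on the other strand, a gene with 0 to 11 counts in these libraries. Col9a1 was the most abundant gene of the set per length, at 12.6 and 6.77 FPKM in CrAT and 30.6 and 17.1 FPKM in MCS. Both groups spread widely, and the log2 fold change of -1.24 (SE 0.45) ranged from -0.76 to -1.78 when 1 library was left out. The ratio of Col9a3 to Col9a2 FPKM was 1.33 and 0.998 in CrAT and 0.765 and 0.678 in MCS, higher in both CrAT libraries. With 2 libraries against 2 an exact permutation test, two-sided, cannot give a p below 0.333, and no such test is printed for single ratios.

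The other FACIT genes were less abundant. Col22a1, a collagen of tissue junctions, was 0.324 and 0.240 FPKM in CrAT and 1.07 and 0.824 FPKM in MCS, a log2 fold change of -1.69 (SE 0.45). Col16a1 had 0 and 25 counts in CrAT and 76 and 60 counts in MCS, also without overlap. In Col12a1, Col14a1, Col19a1 and Col20a1 the groups overlapped, with log2 fold changes from -0.53 to 0.38. Of 9 FACIT genes 7 were below 0, against 49.4% of all genes tested, with a median of -1.24.

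**Figure D2:**
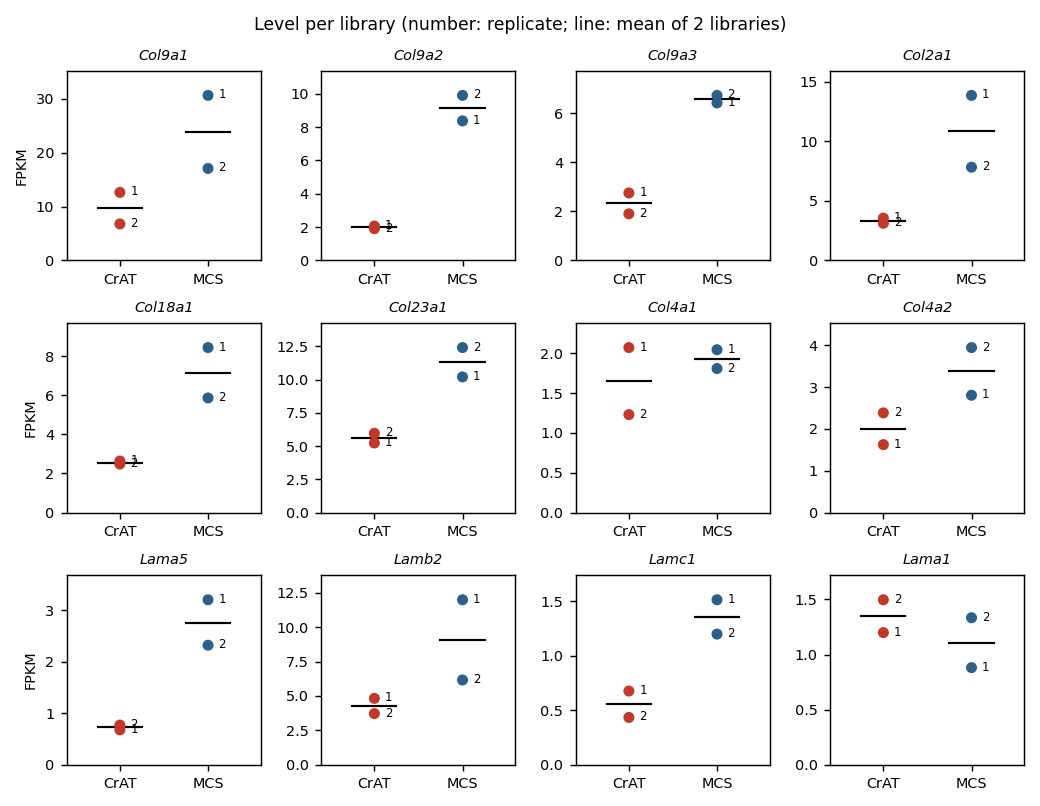
FPKM of 12 genes (vertical axes, each from 0) in the CrAT (red) and MCS (blue) libraries, 1 point per library with its replicate number and a line at the mean of 2 libraries. In Col9a1, Col9a2, Col9a3, Col2a1, Col18a1, Col23a1, Col4a2, Lama5, Lamb2 and Lamc1 both CrAT points lie below both MCS points, while in Col4a1 and Lama1 the groups overlap.

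Among the fibrillar collagens, Col2a1 stood out, the chain of the collagen II fibrils on which collagen IX sits. It was 3.55 and 3.11 FPKM in CrAT and 13.8 and 7.82 FPKM in MCS, from 807 and 768 against 3133 and 1958 counts. The CrAT libraries were close to each other, and both MCS libraries lay above them. The log2 fold change was -1.65 (SE 0.37), with an adjusted p of 1 in edgeR and 0.034 in DESeq2, and it was -1.18 to -2.01 with 1 library left out. Col1a1, a chain of the collagen I of bone and connective tissue, had 0 and 3 counts in CrAT and 38 and 40 counts in MCS. The ratio of summed counts, scaled to library size, was 24.96 (MCS over CrAT, exact 95% interval from 8.23 to 124), which covers counting error only. Its partner chain Col1a2 had 81 and 51 counts in CrAT and 71 and 163 counts in MCS. These overlapped, with a log2 fold change in the same direction of -0.72 (SE 0.58). Col5a1, which takes part in setting fibril width, had 165 and 134 counts in CrAT and 275 and 269 counts in MCS without overlap, a log2 fold change of -0.80 (SE 0.41). Col3a1, Col5a3, Col11a1 and Col11a2 overlapped between the groups. Col3a1 reached 52 counts in CrAT replicate 2 and 16 in MCS replicate 2, with 0 in both other libraries.

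Of the 6 chains of collagen IV, the network of basement membranes, 5 had a negative log2 fold change, against 49.4% of all genes tested, with a median of -0.49. In 2 of the 6 both CrAT values were under both MCS values, against 16.6% of all genes tested. The collagen IV genes lie in head-to-head pairs that share a start region. In RefSeq (GRCm38.p6) the start sites of Col4a1, at 11312826 on the minus strand of chromosome 8, and of Col4a2, at 11312805 on the plus strand, are 21 bases apart. In the table their exons share 22 bases, and the library kit does not mark the strand. Col4a1 was 2.07 and 1.23 FPKM in CrAT and 2.04 and 1.81 FPKM in MCS. These values overlapped, and the log2 fold change was -0.17 (SE 0.42). Col4a2 was 1.62 and 2.38 FPKM in CrAT and 2.80 and 3.94 FPKM in MCS, without overlap and with -0.70 (SE 0.39). The ratio of Col4a2 to Col4a1 FPKM was 0.785 and 1.94 in CrAT and 1.37 and 2.18 in MCS, so replicates of 1 group differed in it more than the group means did.

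The chains Col4a3, Col4a4 and Col4a5 form a second network, known from the kidney glomerulus. Col4a5 was 0.508 and 0.485 FPKM in CrAT and 2.17 and 0.544 FPKM in MCS. The gap rested on MCS replicate 1, since the log2 fold change of -1.40 (SE 0.69) was -0.08 without it. Its neighbour Col4a6, whose start lies 1343 bases away in RefSeq, was 0.606 and 0.183 FPKM in CrAT and 0.809 and 0.347 FPKM in MCS. Col4a3 was 1.34 and 0.378 FPKM in CrAT and 1.77 and 0.741 FPKM in MCS. Both genes overlapped between groups and were higher in replicate 1 than in replicate 2 of each group. Its exons share 563 bases with the antisense RNA C430014B12Rik, which had 299 to 455 counts, so the Col4a3 values are uncertain. Col4a4 was 0.287 and 0.0776 FPKM in CrAT and 0.127 and 0.0522 FPKM in MCS, the only collagen IV gene with a positive log2 fold change, at 1.08 (SE 0.85), and -0.17 without CrAT replicate 1. The ratio of Col4a3 to Col4a4 FPKM was 4.68 and 4.86 in CrAT and 13.9 and 14.2 in MCS, close within each group.

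Of the remaining collagens, Col18a1, Col23a1, Col17a1, Col25a1 and Col7a1 had lower values in both CrAT libraries. Col18a1, a collagen of basement membranes whose end is the source of endostatin, was 2.64 and 2.48 FPKM in CrAT and 8.44 and 5.87 FPKM in MCS. The groups were well apart, and the log2 fold change was -1.43 (SE 0.33), with an adjusted p of 1 in edgeR and 0.0821 in DESeq2. Col15a1, the other multiplexin, was listed at 0 in all 4 libraries. Col23a1, a transmembrane collagen, was 5.24 and 5.96 FPKM in CrAT and 10.2 and 12.4 FPKM in MCS, a log2 fold change of -0.96 (SE 0.29). Col17a1, a transmembrane collagen of hemidesmosomes, was 2.30 and 1.98 FPKM in CrAT and 3.97 and 2.52 FPKM in MCS, with -0.55 (SE 0.39). Col25a1 had 11 and 1 counts in CrAT and 36 and 28 counts in MCS, and Col13a1 overlapped between groups. Col7a1, which forms anchoring fibrils, had 24 and 16 counts in CrAT and 113 and 45 counts in MCS, a log2 fold change of -1.94 (SE 0.71).

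The collagen VI genes, whose products form beaded microfilaments, differed widely between libraries of 1 group. Col6a1 had 44 and 418 counts in CrAT and 176 and 230 counts in MCS, so the CrAT libraries were both the lowest and the highest. Col6a2 had 0 and 30 counts in CrAT and 45 and 51 counts in MCS, without overlap. Col6a3 had 34 counts in CrAT replicate 2 and 0 in the other 3 libraries. Col8a1, a short-chain collagen, and Col26a1 overlapped between groups, with log2 fold changes of -0.0012 and -0.02.

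**Figure D3:**
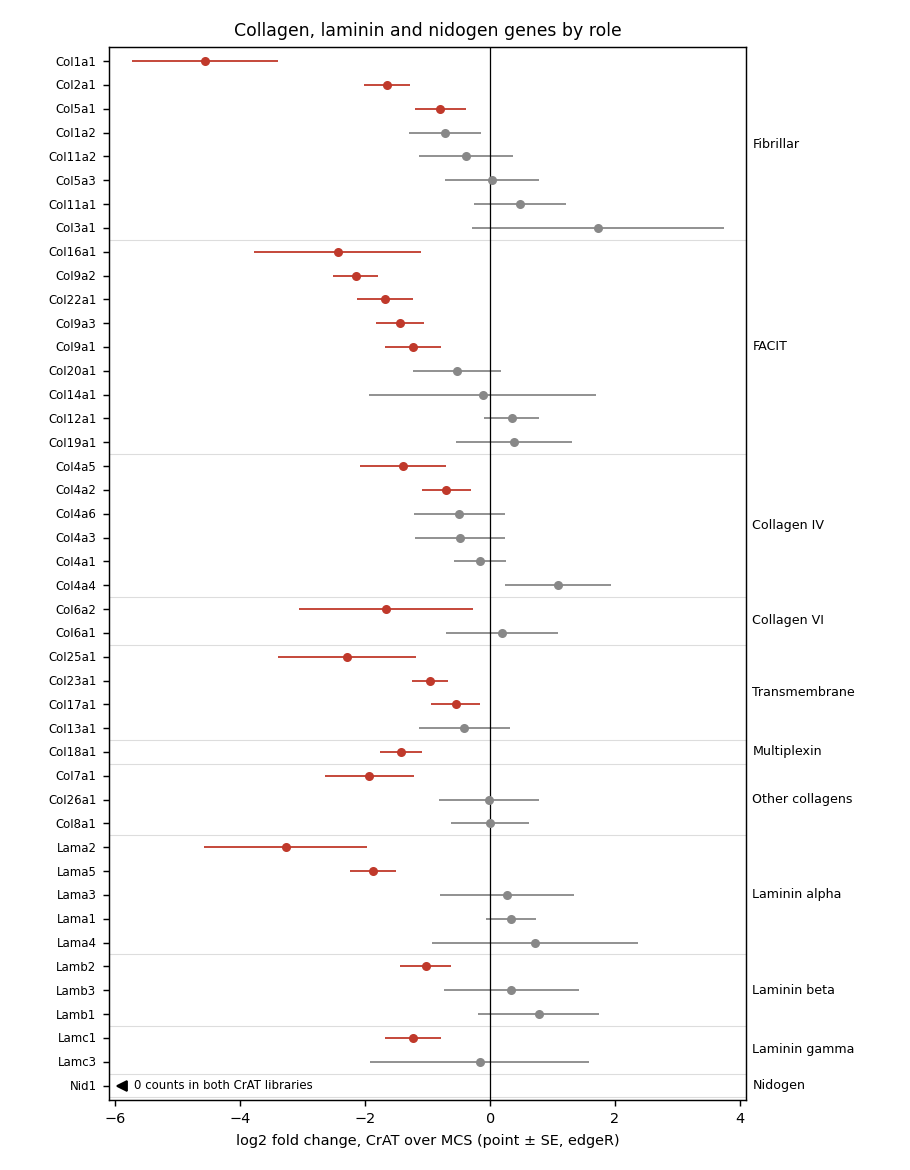
Log2 fold change, CrAT over MCS (horizontal axis, point with SE from edgeR), of 44 of the 45 genes compared, ordered by role. Red points mark the genes in which both CrAT libraries lie below both MCS libraries, grey points those whose groups overlap, and Nid1 is drawn as an arrow because both CrAT libraries had 0 counts.

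The laminin chains differed in direction, and the differences between chains were not tested. Of 11 laminin chains 6 (54.5%) had a negative log2 fold change, against 49.4% of all genes tested, with a median of -0.17. Of 33 collagen chains compared 26 (78.8%) were below 0, with a median of -0.55. Lama5, Lamb2 and Lamc1, whose products can join in a single laminin of mature basement membranes, had lower values in both CrAT libraries. Lama5 (ENSMUSG00000015647) had 191 and 235 counts in CrAT and 895 and 717 counts in MCS. This was 0.725 ± 0.0651 FPKM in CrAT and 2.77 ± 0.625 FPKM in MCS (SD, n = 2 each), without overlap. The log2 fold change was -1.88 (SE 0.37), with an adjusted p of 1 in edgeR and 0.00444 in DESeq2, and between -1.62 and -2.09 with 1 library left out. Its position in the table is chromosome 2, minus strand, start 179818166 and end 179867652. Lamb2, the most abundant laminin chain here per length, was 4.82 and 3.72 FPKM in CrAT and 11.99 and 6.16 FPKM in MCS. Its log2 fold change of -1.03 (SE 0.41) was -0.47 without MCS replicate 1. Lamc1, the gamma chain of most laminins, was 0.677 and 0.435 FPKM in CrAT and 1.52 and 1.2 FPKM in MCS, with -1.23 (SE 0.45).

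Lama1 and Lamb1, chains of an early laminin of the embryo that also lies in the inner limiting membrane, had log2 fold changes above 0. Lama1 was 1.2 and 1.5 FPKM in CrAT and 0.881 and 1.33 FPKM in MCS, a log2 fold change of 0.33 (SE 0.40). Lamb1 was 0.164 and 0.710 FPKM in CrAT and 0.0823 and 0.443 FPKM in MCS, with 0.78 (SE 0.97). Both overlapped between groups and were higher in replicate 2 than in replicate 1 of each group. The ratio of Lama5 to Lama1 FPKM was 0.566 and 0.515 in CrAT and 3.64 and 1.74 in MCS, without overlap. The ratio of Lamb2 to Lamb1 FPKM was 29.4 and 5.24 in CrAT and 146 and 13.9 in MCS, and overlapped.

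Other laminin chains had few counts. Lama2, the alpha chain of muscle and Schwann cell basement membranes, had 0 and 8 counts in CrAT and 52 and 27 counts in MCS, a log2 fold change of -3.28 (SE 1.31). Its exons share 939 bases with an antisense RNA, Gm48084, which had 0 or 1 counts. Lama3 had 15 and 15 counts in CrAT and 22 and 3 in MCS, and Lama4, an alpha chain of vessels, had 0 and 29 in CrAT and 3 and 15 in MCS. Lamb3 had 9 and 73 counts in CrAT and 12 and 55 in MCS, and Lamc3 10 and 94 against 0 and 123. All 4 overlapped between groups.

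Nid1 (ENSMUSG00000005397), the nidogen that binds the laminin gamma chain and collagen IV, had 0 counts in both CrAT libraries and 22 and 36 counts in MCS. A floor of 3 counts per library was 0.126 and 0.113 CPM in CrAT replicates 1 and 2. For counting error alone, Nid1 was at least 8.71-fold lower in CrAT than the MCS mean of 1.09 ± 0.296 CPM (SD, n = 2). The bound leaves out the spread between libraries of 1 group, which could be larger, as for Lamc3 with 0 and 123 counts in MCS. Nid1 met the count rule through MCS alone. It did not pass in edgeR (adjusted p = 1) or DESeq2 (adjusted p = 0.130). Its exons share 286 bases with Gm48682 on the other strand, which had 0 counts in 3 libraries and 2 in MCS replicate 1. With Nid1 at this bound the median of the 45 genes was again -0.53. Nid2 had 9 and 7 counts in CrAT and 18 and 5 counts in MCS, just under the count rule, as was Col24a1, with 3 and 0 against 17 and 8. Just above it were Col14a1, with 1 and 23 counts against 25 and 0, and Lama4. The other 10 genes under the rule were Col5a2, Col6a3, Col6a4, Col6a5, Col6a6, Col8a2, Col10a1, Col15a1, Col27a1 and Col28a1, with at most 34 counts in any library. Of these, Col6a5, Col15a1 and Col28a1 had 0 counts in all 4 libraries, which for counting error alone allows up to 0.126 CPM per library.

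Genes that make, modify, bind or degrade these proteins were counted from lists, and no gene of them passed an adjusted p of 0.05 in edgeR. Beside the counts of each list, 49.4% of all genes tested had a negative log2 fold change. Of 20 enzymes and chaperones of collagen synthesis, 13 had a negative log2 fold change and the median was -0.11. P4ha3, a catalytic subunit of the prolyl hydroxylase that stabilises the helix, was opposite in direction, at 2.68 and 3.77 CPM in CrAT against 0.241 and 0.0724 CPM in MCS. Its log2 fold change was 4.34 (SE 0.78), with an adjusted p of 1 in edgeR and 0.00841 in DESeq2. The values of MCS correspond to a few counts per library. Fkbp10, a chaperone of procollagen, was 34.9 and 35.2 CPM in CrAT against 65.2 and 56.5 CPM in MCS, with -0.80 (SE 0.28).

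Of 13 genes of procollagen processing and crosslinking tested, 7 were below 0, with a median of -0.06. Loxl1, a lysyl oxidase of elastic fibres, was 4.90 and 2.98 CPM in CrAT against 13.5 and 13.0 CPM in MCS, a log2 fold change of -1.75 (SE 0.44). Loxl3 was 15.9 and 15.1 CPM in CrAT against 29.1 and 22.5 CPM in MCS. Of 18 other matrix proteins tested 11 were below 0, with a median of -0.38. Sparc, a collagen-binding glycoprotein, was 890.6 and 768.7 CPM in CrAT against 1385 and 1108 CPM in MCS, and Frem2 0.670 and 0.528 CPM against 1.61 and 2.39 CPM.

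Receptors and proteases were mixed. Of 15 collagen and laminin receptors tested 9 were below 0, with a median of -0.03. Ddr1, a receptor kinase that binds collagen, was 207.7 and 228.8 CPM in CrAT against 444 and 301.8 CPM in MCS. Itga6, a laminin-binding integrin chain, lay the other way at low level, with 2.09 and 1.28 CPM in CrAT against 0.523 and 0.326 CPM in MCS. Of 15 matrix proteases and inhibitors tested 11 were below 0, with a median of -0.13. Mmp14, a collagenase of the cell surface, was 40.6 and 37.1 CPM in CrAT against 85.0 and 67.8 CPM in MCS, with -0.98 (SE 0.29). Mmp15 was 2.47 and 3.36 CPM in CrAT against 5.47 and 10.1 CPM in MCS. For each of these genes the groups did not overlap, but they were picked for the smallest p of their list, which favours non-overlap. Over the whole lists the groups overlapped for 11 of 15 receptors and for 11 of 15 proteases and inhibitors, against 13427 of the 19638 genes tested.

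Markers of Mueller glia moved with the matrix genes, as did the sums of some other lists given below. All 16 markers on the list had a negative log2 fold change, against 49.4% of all genes tested, with a median of -0.64. For 10 of them both CrAT values were under both MCS values, against 16.6% of all genes tested. The 16 markers summed to 16340 and 13170 CPM in CrAT against 24380 and 21680 CPM in MCS, and none was at 0. Their part in the lower matrix transcripts was not tested. Of 7 astrocyte markers tested 5 were below 0, with sums of 1963 and 2097 CPM in CrAT against 2358 and 2165 CPM in MCS, and Pax2 had 0 or 1 counts. Most of these sums was a single gene, Aldoc, at 1428.6 and 1737.7 CPM in CrAT against 1688.1 and 1688.5 CPM in MCS. Of 8 endothelial markers tested 5 were below 0, with sums of 474.9 and 376.8 CPM in CrAT against 863.6 and 485.9 CPM in MCS. Cdh5 and Erg, which define endothelial cells, had 0 counts in all 4 libraries, and Pecam1 lay the other way, with 37 and 25 counts in CrAT and 10 and 15 in MCS. The sum was mostly Kdr and Flt1, receptors of vascular growth factors. Flt1 was lower in DESeq2 (adjusted p = 0.00312, and 1 in edgeR), with 1891 and 1353 counts in CrAT and 6059 and 5686 counts in MCS.

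Pericyte and smooth muscle markers summed to 1266 and 729.3 CPM in CrAT against 957.9 and 818.1 CPM in MCS, with Myh11 at 0 in all 4 libraries. Only 5 of the 10 genes on that list were tested. Acta2, Abcc9 and Cspg4 had at most 34 counts in any library, so other genes made up the sums, which were not read as a level of these cells. Fibroblast and meningeal markers summed to 9.26 and 16.3 CPM in CrAT against 11.7 and 14.1 CPM in MCS. Their marker Dcn had 11 and 29 counts in CrAT and 0 and 114 counts in MCS, and Lum 0 and 18 against 0 and 36. Retinal pigment epithelium markers summed to 61.7 and 53.5 CPM in CrAT against 45.6 and 67.5 CPM in MCS, with Rpe65 and Tyr at 0 in all 4 libraries. Lens markers summed to at most 4.13 CPM. Microglia and macrophage markers summed to 33.5 and 30.1 CPM in CrAT against 36.4 and 34.5 CPM in MCS. Oligodendrocyte and Schwann cell markers summed to 177 and 171.9 CPM in CrAT against 244.5 and 212.9 CPM in MCS. The sums of cone, bipolar, horizontal, amacrine and ganglion cell markers overlapped between the groups. The rod markers named above came to 46270 and 24770 CPM in CrAT against 45200 and 26650 CPM in MCS, without a common direction between groups.

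**Figure D4:**
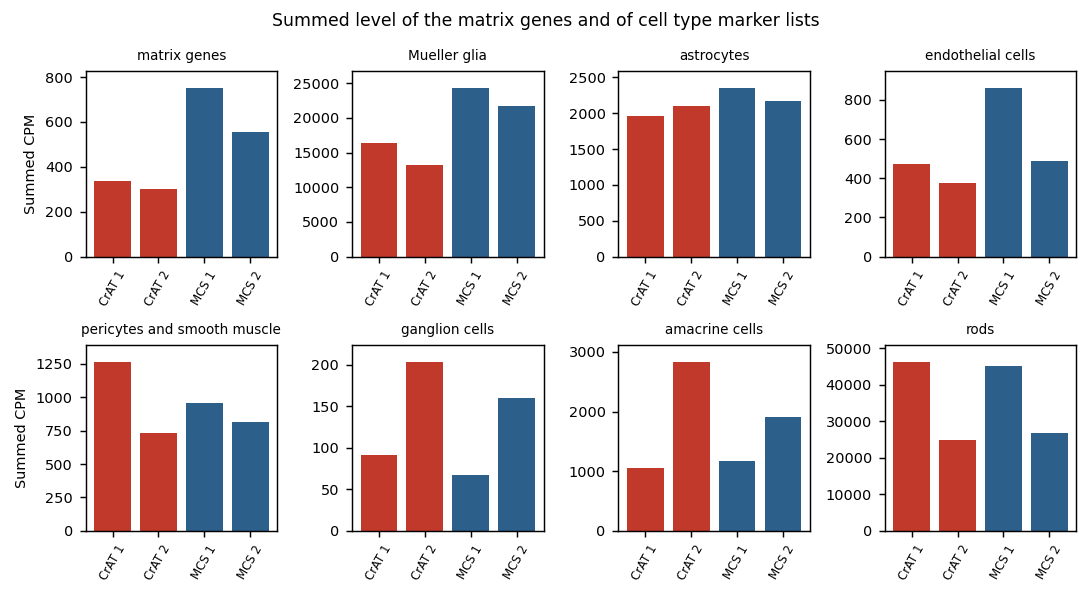
Summed CPM (vertical axes, from 0) of the 57 matrix genes and of 7 marker lists in each library, with CrAT in red and MCS in blue. The sums of the matrix genes and of the Mueller glia, astrocyte and endothelial markers are lower in both CrAT libraries. For the matrix genes they are 337.4 and 300.2 against 753.4 and 553.5 CPM. Ganglion cell and amacrine markers are higher in replicate 2 of each group.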

How the data were processed

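The 4 libraries were prepared by SMART-seq from little input, per the labels' protocols. STAR 2.7.2b and the build names GRCm38.p6 and mm10 come from the submitters' processing notes. Neither the counter nor the annotation release is named in the sources used here. What the authors deposited were estimated counts per gene, rounded to whole numbers: values rebuilt from FPKM lay within 0.5 of them, and 43.6% to 44.9% of those above 0 were not whole within 0.02. Counts had been assumed when tests were chosen, and rounded estimates take the same test. The FPKM values are the authors' own. Of 57 genes, 3 had the start and end of GENCODE M21 (GRCm38), so table coordinates are given without a build. The 4 columns of other samples (2 per table) were not used.

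Genes passing edgeR's filterByExpr were scaled by TMM and tested by group with edgeR 4.0.16 (R 4.3.3; robust quasi-likelihood F test, two-sided, 2 residual degrees of freedom). Benjamini-Hochberg adjustment ran over every gene tested, at a threshold of 0.05. Alternatives were DESeq2 1.42.0, limma 3.58.1 (voom), other scalings and filters, a replicate block and leaving out each library. Scripts were tested on simulated data. There edgeR called, in the right direction, 6% of the genes changed 2-fold, 46% of those changed 4-fold and 94% of those changed 16-fold. It also made 5 false calls. The absence of calls in edgeR is therefore no sign that a gene did not change. The genes and lists were chosen with earlier results of these data known. Genes given by library were the 12 with the smallest p, the 10 with the highest mean FPKM, collagen IV, laminin and nidogen genes meeting the count rule, those nearest to it, and the 2 genes with the smallest p of each pathway list. Other genes given by value were chosen after their values were seen. The values of 1 gene that meets the count rule are not reported here, though it is included in the counts and medians.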

Additional observations from a re-analysis of the deposited data

How the results depend on the processing

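No gene was called over the table by edgeR in any leave-one-library-out fit (0 to 0 genes, 0 to 0 of the matrix genes), with RLE scaling, library totals, the filter of 10 counts in all 4 libraries, limma-voom or the replicate block. DESeq2 called 55 genes, 3 of them matrix genes (Col9a2, Col2a1 and Lama5, at -2.14, -1.64 and -1.87), and edgeR with no filter on low counts called 2 genes, none of them a matrix gene. The number of matrix genes below 0 was 29 to 34 of 45 with 1 library left out. Their median was -0.70 to -0.97 with 1 library left out, against -0.53. The cause of the changes was not tested. In 21 of 45 genes both CrAT values lay under both MCS values, also with RLE scaling and library totals, and in 0 over them. With 1 library left out these counts were 25 to 28 and 4 to 8, and the share of all genes lying under rose from 16.6% to between 29.4% and 36.7%, as fewer libraries overlap less often. Replicate numbers are shared by the groups, but nothing ties same-numbered libraries together. Their deviations correlated at 0.35 over 19638 genes. With the replicate block, 17 matrix genes and 1922 genes in all had an unadjusted p under 0.05, against 14 and 815. Fold changes were followed gene by gene across the settings for only 28 of the 45 matrix genes. Among these 28, the fold changes of Col6a1, Lama4 and Lamc3 turned with the replicate block, to -0.43, -0.10 and 0.82. They also turned in limma-voom, to -0.48, -0.81 and 1.97. With 1 library left out, the sign turned, among the same 28 genes, for Col6a1 (-2.05 to 1.03), Col4a1 (-0.61 to 0.19), Col4a3 (-1.69 to 0.28), Col4a4 (-0.17 to 1.86), Col4a6 (-1.62 to 0.25), Lama3 (-0.56 to 2.41), Lama4 (-6.11 to 2.15), Lamb1 (-0.60 to 2.44), Lamb3 (-1.69 to 1.69) and Lamc3 (-2.39 to 8.64), all of which overlapped between groups. The remaining matrix genes were not examined for a turn of sign. Where 1 library remained in a group, it was assumed to vary like the others.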

Other observations

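Of the 45 matrix genes, 18 (40%) had both replicate 2 libraries on 1 side of both replicate 1 libraries, whatever the vector. In 10 (22.2%) both replicate 2 libraries lay above, against 24.1% of all genes tested, and in 8 (17.8%) both lay below, against 23.5% of all genes tested. The first share was close to that of the whole table and the second was lower, and neither difference was tested. Summed amacrine cell markers were also higher in replicate 2, at 2835 against 1055 CPM in CrAT and 1917 against 1168 CPM in MCS, and summed rod markers were lower.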
